A study of Mus musculus with 27 samples.

Results

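The comparison set 3 cerebellar tumours of Tlx3-cre:SmoM2 mice against 6 samples of non-tumour cerebellum, which are 9 of the 27 Affymetrix arrays of the series; the arrays were chosen by the tissue and mouse line that the labels give, not by any measured value. The tumours arose in mice in which Cre from the Tlx3 line switched on SmoM2, an active form of the Hedgehog receptor protein Smoothened. The non-tumour samples came from other lines: 2 from Mxi1-cre:SmoM2 mice, 1 from Ptc1+/- mice, which lack a copy of the Hedgehog receptor gene Ptch1, 2 from Olig2-tva-cre:SmoM2 mice and 1 from the hGFAP-cre:SmoM2 line. None came from the Tlx3-cre line, and 5 of the 6 carried a Cre driver with SmoM2, so line and tumour state cannot be told apart here and the controls were not wild type. The remaining tumours were 7 of Olig2-tva-cre:SmoM2 mice, 3 of the Math1-cre:SmoM2 line, 2 of Ptc1+/- mice and 6 of hGFAP-cre:SmoM2 mice. Ages are not in the labels. The tumours are labelled as biological replicates but no animal is named, so a p-value here covers the spread from sample to sample only.

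Granule neurons are the small excitatory neurons of the cerebellum, and their precursors divide in the external granule layer in response to Sonic hedgehog released by Purkinje cells. Sonic hedgehog binds Patched, which frees Smoothened, and the Gli transcription factors then switch on genes for division. Precursors that keep this signal instead of maturing give rise to the Hedgehog group of medulloblastoma. Because each array holds RNA from whole tissue, fewer cells of a type and less RNA per cell cannot be told apart.

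The signals are MAS5 intensities scaled to a common trimmed mean, raised to a floor of 3.37 and given on the log2 scale, so a difference of 1 is a 2-fold change. A gene is called where limma, a linear model moderated across all genes, gave a Benjamini-Hochberg adjusted p under 0.05. Where arrays of the lower group lie at the floor, a difference is a lower bound. Of 13527 genes tested, 5451 were called (40.3%), 2659 of them higher (19.7%) and 2792 lower (20.6%) in the tumours. The tumour and control arrays did not overlap for 6277 genes (46.4%), 3093 of them higher (22.9%) and 3184 lower (23.5%) in the tumours. The median difference over all genes was -0.08, that of the called higher genes 1.24 and that of the called lower genes -1.35. A difference of 8-fold or more was reached by 241 higher and 190 lower genes, and one of 32-fold or more by 36 higher and 1 lower gene. The arrays correlated at 0.954 to 0.966 among the tumours and at 0.921 to 0.961 among the controls, against 0.728 to 0.798 between them.

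Before scaling, the tumour arrays were all brighter than the controls, with trimmed mean signals of 169 to 206 in the tumours and 118 to 161 in the controls. Higher genes made up 48.8% of the calls after trimmed mean scaling, 52.4% after quantile normalization, 64.3% after median scaling and 69.5% with no scaling, and the median of all genes moved to 0.19 with median scaling and to 0.29 with no scaling. The ratio of 3' to 5' signal of control transcripts, a sign of RNA quality, was 0.04 to 0.44 (log2) in the tumours and 0.14 to 1.75 in the controls, with control 1 at the top. The part of these values in the results was not tested beyond the fits given under the processing alternatives. Control 6, from the Ptc1+/- line, had the highest summed signal of the mitosis genes among the controls, 1789, against 880 to 1409 in the other controls and 17638 to 19830 in the tumours. Without it, 5272 genes were called.

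**Figure D1:**
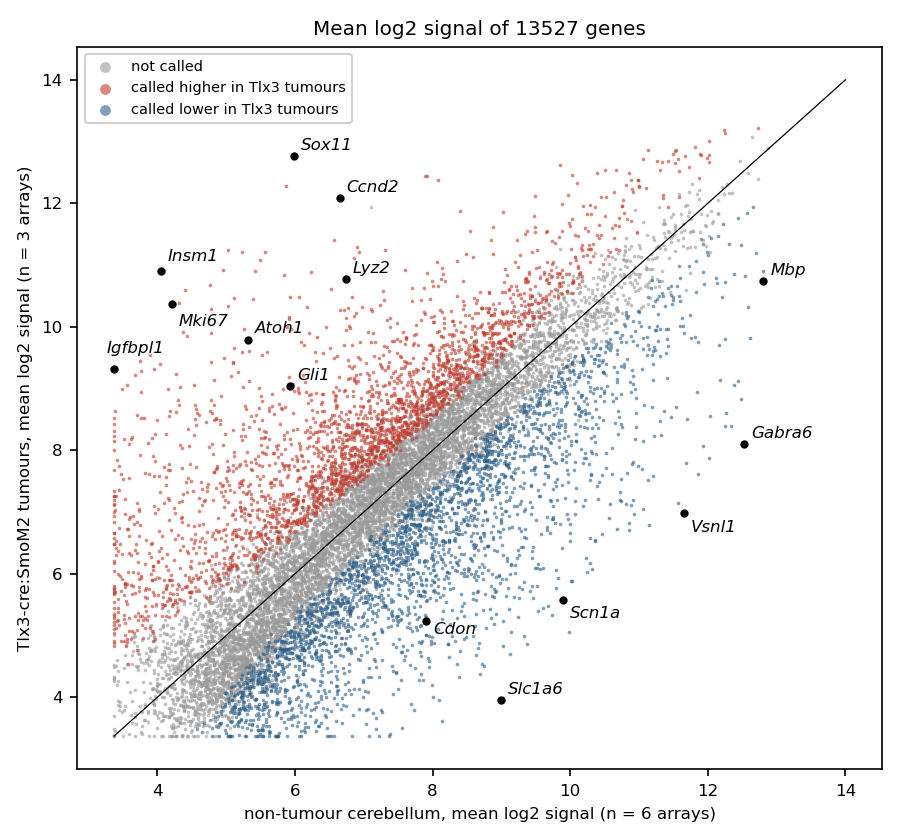
Each point is a gene, with its mean log2 signal in Tlx3-cre:SmoM2 tumours (3 arrays) on the vertical axis and in non-tumour cerebellum (6 arrays) on the horizontal axis; red and blue mark the 2659 genes called higher and the 2792 called lower in the tumours, and the line marks equal signal. Points at 3.37 lie at the floor, as Igfbpl1 does in the controls.

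The genes of the drivers and of the Hedgehog receptor system were examined first. Smo, the gene of Smoothened, rose in the tumours. Its log2 signal was 8.88, 8.71 and 8.58 in the tumours, against a lowest of 6.76, a median of 6.94 and a highest of 7.27 in the controls, a difference of 1.74 (SE 0.22, limma adjusted p = 4.3e-07). The groups did not overlap, and whether the signal came from the SmoM2 transgene or the mouse's own gene cannot be told apart. Tlx3, the homeobox gene whose locus names the Cre line, was at 6.72, 6.93 and 7.08 in the tumours and between 3.63 and 7.09 in the controls, with a median of 6.21. The groups overlapped and Tlx3 was not called (difference 0.98, SE 0.51, limma adjusted p = 0.127). Without control 6, which held the lowest value, the difference was 0.52. Mxi1, whose locus names the Cre line of 2 controls, was not called either (0.59, limma adjusted p = 0.0512).

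Gene lists here and below were chosen with earlier results of these data known, so their counts describe the members and test no list. Of the 13 measured genes of the Hedgehog output list 10 rose and 1 fell, with a median of 1.65. Gli1, the transcription factor most used as a readout of the pathway, was at 9.17, 9.20 and 8.76 in the tumours. In the controls its lowest value was 5.47, the median 5.98 and the highest 6.27. The difference was 3.11 (SE 0.44, limma adjusted p = 1.9e-06), 8.66-fold, with no overlap. Ccnd2, a D cyclin that drives precursors into the cell cycle, was at 12.12, 12.03 and 12.09 in the tumours and between 5.97 and 7.70 in the controls, with a median of 6.47. Mycn, the transcription factor through which Hedgehog signalling keeps precursors dividing, was at 10.79, 10.92 and 10.83 in the tumours and between 5.01 and 6.96 in the controls, with a median of 5.80. These 2 genes differed by 5.43 and 5.00, both well outside the spread of either group. Sfrp1, a secreted Wnt antagonist, and Pdlim3, a cytoskeletal adaptor, differed by 5.65 and 5.53, the second as a lower bound.

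Ptch1, the receptor that the pathway induces as its own brake, was at 11.23, 11.06 and 11.51 in the tumours, against 9.93 to 10.58 in the controls with a median of 10.35, and rose by 0.96 (SE 0.28, limma adjusted p = 0.00641), 1.95-fold. Its other probe sets differed by 2.01 and 0.62, so the size depends on the probe set. Ccnd1, another D cyclin, and Hhip, a Hedgehog decoy receptor, rose by 2.11 and 1.65. Boc, a Hedgehog co-receptor, rose by 0.78, and this call was lost without tumour 2 (0.64) or tumour 3 (0.78). Eya1, a phosphatase and transcriptional cofactor, fell by 1.09, a call lost without tumour 2 (-0.95), with no scaling (-0.71) and with quantile normalization (-0.80). Bcl2 and Pcp4l1 were not called, at 0.06 and -0.62.

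The 16 measured components of the pathway itself moved in both directions, with 6 higher (37.5%), 3 lower (18.8%) and a median of 0.06. Of all tested genes 19.7% were higher and 20.6% lower. Gli2, the main activator of the pathway, was at 8.41, 9.10 and 8.88 in the tumours and between 3.57 and 6.97 in the controls, with a median of 5.54, and rose by 3.28 (limma adjusted p = 9.94e-07). Sufu, which holds the Gli proteins in check, Kif7, a kinesin of the primary cilium, and Gpr161, a ciliary receptor that restrains the pathway, rose by 2.38, 2.30 and 1.60, that of Kif7 as a lower bound. Shh, the ligand made by Purkinje cells, fell: it was at 5.17, 4.38 and 5.47 in the tumours, against a lowest of 6.79, a median of 8.07 and a highest of 8.76 in the controls (-2.91, limma adjusted p = 0.0006). Cdon, a co-receptor, was at 4.92, 4.99 and 5.78 in the tumours and between 7.77 and 8.16 in the controls, with a median of 7.88 (-2.68, limma adjusted p = 1.54e-08). Neither gene's groups overlapped. Gas1, the remaining co-receptor, rose by 0.69, so the co-receptors Boc, Cdon and Gas1 did not move one way. Gli3, mainly a repressor, was not called (-0.84, limma adjusted p = 0.0796).

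**Figure D2:**
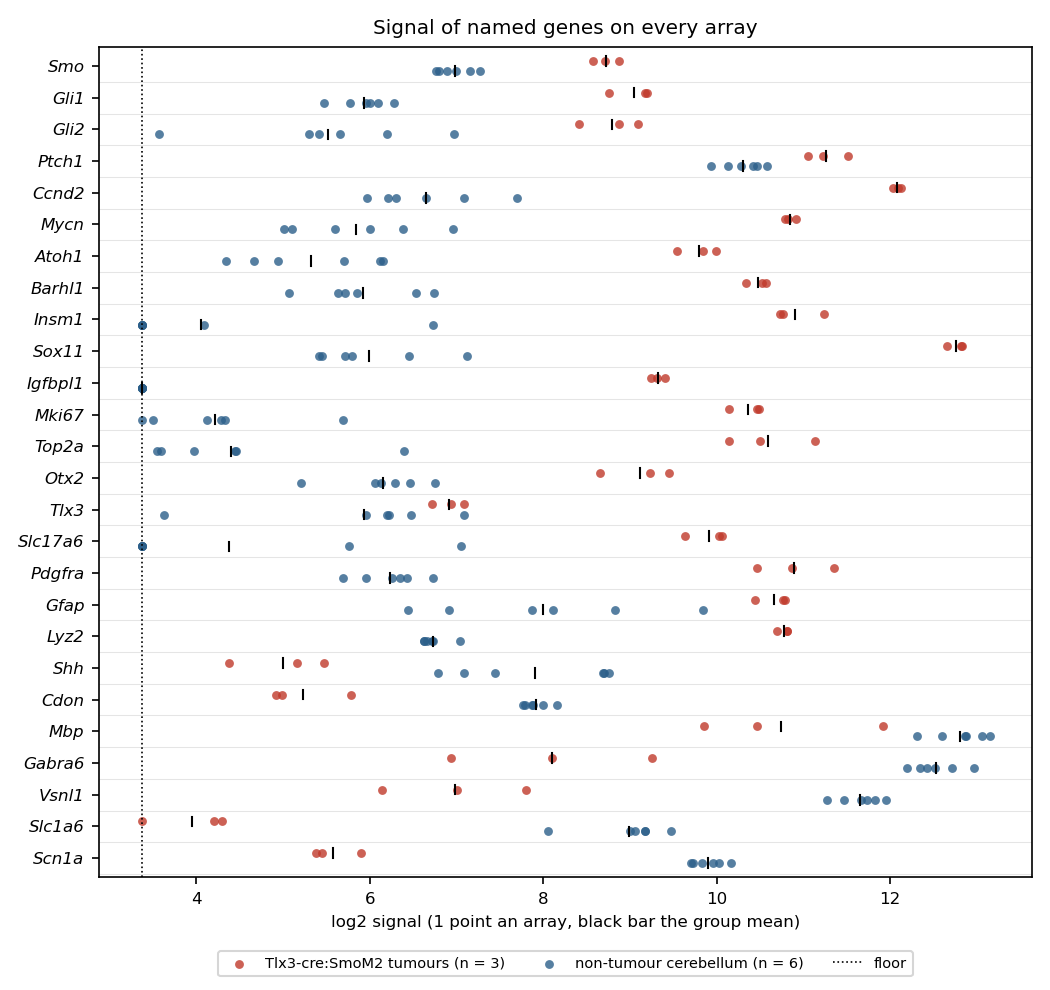
Log2 signal of 26 named genes on every array, with the Tlx3-cre:SmoM2 tumours (red, 3 arrays) above the non-tumour cerebellum (blue, 6 arrays) in each line; black bars are group means and the dotted line is the floor at 3.37. Among the genes drawn only Tlx3 has overlapping groups.

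The identity genes of granule neuron precursors were high in the tumours. Of 17 measured, 12 rose and none fell, with a median of 1.97. Atoh1, the transcription factor that specifies the granule lineage, was at 9.54, 9.85 and 9.99 in the tumours, against a lowest of 4.34, a median of 5.33 and a highest of 6.15 in the controls. The difference was 4.47 (SE 0.49, limma adjusted p = 2.5e-08), 22.2-fold, with no overlap. Barhl1, a homeobox gene downstream of Atoh1, was at 10.34, 10.56 and 10.53 in the tumours and between 5.07 and 6.74 in the controls, with a median of 5.78. Cxcr4, a chemokine receptor that keeps precursors in the outer layer, was at 9.63, 8.99 and 9.65 in the tumours and between 4.19 and 5.52 in the controls, with a median of 4.60. They rose by 4.55 and 4.64.

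The highest differences of the whole comparison were in this list. Insm1, a zinc finger factor of dividing neural progenitors, was at 10.76, 10.73 and 11.23 in the tumours. In the controls 4 arrays lay at the floor and the highest, control 6, was at 6.73. The difference of 6.86 (SE 0.53, limma adjusted p = 3.48e-11) is therefore a lower bound, and it was 7.40 without control 6. Sox11, a transcription factor of immature neurons, was at 12.83, 12.65 and 12.82 in the tumours and between 5.41 and 7.12 in the controls, with a median of 5.75, a difference of 6.78 and 110-fold. The members not called were Zic1 (0.22), Neurod1 (-0.14), Zic2 (-0.33), Etv4 (-0.41) and Meis2 (-1.41). Zic1 and Zic2 mark the granule lineage also after division, and Neurod1 its step towards a neuron.

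Genes of newborn and migrating neurons moved in both directions. Of 20 measured, 7 rose (35%) and 4 fell (20%), with 9 not called. Of all tested genes 19.7% rose and 20.6% fell, so the lower share was like that of all genes. Dcx, a microtubule protein of migrating neurons, was at 11.30, 11.34 and 11.01 in the tumours and between 3.37 and 6.23 in the controls, and Dcc, a receptor for netrin, was at 10.62, 11.01 and 10.38 in the tumours and between 4.25 and 5.57 in the controls. They rose by 5.99 and 5.91. Tubb3, a neuronal tubulin, rose by 1.81. The netrin receptors Unc5b and Unc5c fell by 1.64 and 1.17, and the adhesion molecule Cntn1 by 1.63. Cntn2, a marker of granule neurons that have just left the cycle, was not called (0.52).

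Cell division genes rose. Of 29 measured mitosis genes, 28 rose, with a median of 4.18, and of 32 measured DNA replication genes 28 rose, with a median of 2.69; none of either list fell, although 1 mitosis gene was called lower without control 6. The sum of the mitosis genes' signals was 17638 to 19830 in the tumours and 880 to 1789 in the controls. Top2a, which untangles DNA before chromosomes separate, was at 11.13, 10.50 and 10.14 in the tumours and between 3.54 and 6.40 in the controls, with a median of 4.21. Mki67, the gene of the proliferation antigen Ki-67, was at 10.49, 10.14 and 10.46 in the tumours and between 3.37 and 5.69 in the controls, with a median of 4.20. Their differences were 6.19 (SE 0.43, limma adjusted p = 3.78e-12) and 6.15 (SE 0.35, limma adjusted p = 9.88e-14). On both genes the highest control was control 6, still far below every tumour.

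The probe sets of Tpx2, a spindle assembly factor and the single mitosis gene that was not called, disagreed. The probe set used here, the brightest, was at 6.69, 6.53 and 6.66 in the tumours and between 6.54 and 7.997 in the controls (-0.61, limma adjusted p = 0.0693). The other probe sets of Tpx2 differed by 3.38, 4.73 and -0.63. Fen1, a flap endonuclease of DNA replication, was likewise not called at -0.35, while its other probe set differed by 2.13. In replication, Uhrf1, which carries DNA methylation through S phase, rose by at least 5.64, Rrm2, a subunit of ribonucleotide reductase, by 5.49 and Mcm6, of the replicative helicase, by at least 5.43. The cyclins E, Ccne1 and Ccne2, which start S phase, were not called (-0.19 and 0.44), nor was Tyms, which makes thymidylate (0.98).

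Mitotic genes are known for promoters that hold CCAAT boxes and a cell cycle homology region, bound by NF-Y and by the DREAM and MuvB complexes. Bases before the start of 6 mitosis genes are printed because these genes moved together and each stretch holds both motifs. They are from RefSeq (GRCm38.p6), read 5′ to 3′ on the gene's strand, with capitals on the cell cycle homology region (TTTGAA, or TTCAAA on the other strand), on the CCAAT box (CCAAT, or ATTGG on the other strand) and, in Cdk1, on the E2f motif TTTCGCGC. Each ends at the base before the start, except that of Mki67, which ends further upstream. They lie as follows: Top2a at chr11:99024190-99024294 on the minus strand, Cdk1 at chr10:69352913-69353047 on the minus strand, Ube2c at chr2:164769834-164769928 on the plus strand, Cdc20 at chr4:118437344-118437408 on the minus strand, Kif11 at chr19:37376322-37376381 on the plus strand and Mki67 at chr7:135716469-135716574 on the minus strand.
Top2a: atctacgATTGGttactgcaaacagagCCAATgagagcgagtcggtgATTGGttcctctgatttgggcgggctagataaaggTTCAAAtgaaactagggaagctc
Cdk1: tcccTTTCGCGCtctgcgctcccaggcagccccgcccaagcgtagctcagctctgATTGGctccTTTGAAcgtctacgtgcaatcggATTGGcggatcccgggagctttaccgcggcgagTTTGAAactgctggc
Ube2c: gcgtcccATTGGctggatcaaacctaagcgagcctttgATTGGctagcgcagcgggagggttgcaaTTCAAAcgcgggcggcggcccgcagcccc
Cdc20: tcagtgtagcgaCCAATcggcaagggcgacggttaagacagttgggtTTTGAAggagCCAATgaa
Kif11: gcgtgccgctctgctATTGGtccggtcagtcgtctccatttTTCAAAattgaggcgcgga
Mki67: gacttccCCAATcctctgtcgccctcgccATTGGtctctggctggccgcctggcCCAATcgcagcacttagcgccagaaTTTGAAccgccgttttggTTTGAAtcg

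Of the 29 measured mitosis genes, 25 had a RefSeq window of 250 bases before to 50 bases after the start. The letters TTTGAA lay on either strand in 18 of the 25 windows (72.0%), against 14.6% of the windows of genes called higher, 11.7% of genes not called and 11.9% of all tested genes. CCAAT lay in 19 of them (76.0%), against 40.5%, 38.2% and 38.2% in the same sets. The E2f letters lay in 1 of the 25 windows, against 0.587% of all tested genes. In the granule neuron precursor list TTTGAA lay in 2 of 14 windows (14.3%) and CCAAT in 9 (64.3%). These are matches of letters, which show no binding. Under 80% of the DNA replication, Hedgehog output and mature granule neuron lists had a window, so the same check is void for them.

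**Figure D3:**
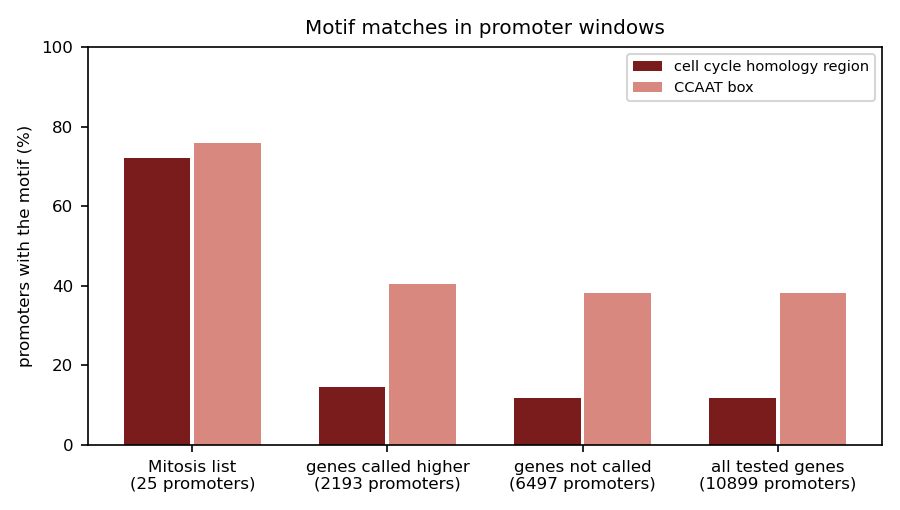
Share of promoter windows (percent) that hold the letters of the cell cycle homology region (dark) or the CCAAT box (light), for the mitosis list, the genes called higher in the tumours, the genes not called and all tested genes. The mitosis list stands at 72.0% and 76.0%, against 11.9% and 38.2% of all tested genes.

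Other genes of the cell cycle also rose. Cdk6, the kinase partner of the D cyclins, was at 11.22, 10.87 and 11.66 in the tumours and between 4.22 and 6.41 in the controls, with a median of 5.00, a difference of 6.23 (SE 0.39, limma adjusted p = 4.16e-13). Of the 17 measured inhibitors and kinases of this step 12 rose and none fell. They included inhibitors as well as drivers: Cdk4 rose by 3.14 and E2f1 by 2.83, and the inhibitor genes Cdkn2c and Rb1 rose by 2.34 and 0.94. Cdkn1b, a brake on granule precursor division, was not called (0.58). All but 1 of 19 DNA repair genes rose, Brca1 by 3.96 and Rad51ap1 by at least 4.70, with Xrcc6 not called (0.46). Without tumour 1, 15 of the 19 rose. Among chromatin regulators 14 of 24 rose and 1 fell: Hmgb2, a DNA-bending protein, rose by 5.12 and Ezh2, the methyltransferase of Polycomb, by 3.55, while its relative Ezh1 fell by 1.04. Of 13 p53 target genes 2 rose (15.4%) and 2 fell (15.4%, 1 gene without tumour 2), against 19.7% and 20.6% of all tested genes. Cdkn1a (0.38) and Mdm2 (0.55) were not called. Mycl and Myc, relatives of Mycn, rose by at least 5.26 and 3.03. Of the 11 measured genes of the Myc and Mxd network only 2 rose (18.2%), while 1 fell (9.1%) and 8 were not called, against the same shares of all tested genes. When single arrays were left out, 2 to 3 rose and 0 to 1 fell.

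Genes of the mature cerebellum fell. In the mature granule neuron list all 17 measured members were lower, with a median of -3.13, as were 13 of 14 Purkinje cell genes (median -3.49) and 9 of 10 genes of GABAergic interneurons. The mature granule count was 15 to 16 when single arrays were left out, and 15 with no scaling or median scaling. A gene high only in the controls could pass the filter through them. Among genes above the table median on at least 9 arrays, 11 of 12 Purkinje and 5 of 6 GABAergic genes were lower. Gabra6, the GABA receptor subunit of mature granule neurons, was at 8.10, 9.26 and 6.94 in the tumours, against a lowest of 12.20, a median of 12.47 and a highest of 12.97 in the controls (-4.43, SE 0.84, limma adjusted p = 9.69e-05). Vsnl1, a neuronal calcium sensor, was at 7.01, 7.80 and 6.14 in the tumours and between 11.27 and 11.96 in the controls (-4.67), and Cbln3, a synaptic organiser secreted by granule neurons, was at 7.19, 8.70 and 6.94 in the tumours and between 11.66 and 12.24 in the controls (-4.25). No tumour reached the lowest control on these 3 genes. Slc1a6, the glutamate transporter of Purkinje cells, was at 4.20, 4.30 and 3.37 in the tumours and between 8.06 and 9.47 in the controls. Its difference of -5.04 (SE 0.43, limma adjusted p = 2.18e-10) is a bound, since 1 tumour lay at the floor.

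In the Purkinje, GABAergic and unipolar brush cell lists 3 genes went the other way. Slc17a6, the vesicular glutamate transporter of unipolar brush cells and of immature granule neurons, was at 9.64, 10.03 and 10.06 in the tumours; 4 controls lay at the floor and the highest was at 7.05 (5.53, limma adjusted p = 1.07e-08). Slc17a7, the transporter of mature granule neurons, fell by 3.20. Foxp2, a transcription factor that Purkinje cells express, rose by 1.27, and Lhx1, expressed in Purkinje cells and early GABAergic neurons, by 1.02. Eomes, the transcription factor of unipolar brush cells, fell by 1.58, a call lost without scaling (-1.20).

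Synaptic and channel genes also fell. Of 19 genes of synaptic vesicles 17 fell and 1 rose, with 1 not called, and 12 fell with no scaling. Syt2, a calcium sensor of release, fell by 3.57 and Stx1a, a syntaxin, rose by 1.60. Of 22 ion channel genes 17 fell (12 with no scaling) and 1 rose. Scn1a, a sodium channel, was at 5.38, 5.90 and 5.45 in the tumours and between 9.70 and 10.16 in the controls (-4.33). The calcium channel subunit Cacna2d1 rose by 2.71. Of 14 glutamate receptor genes 8 fell, Grin2c, the subunit of mature granule neurons, by 3.94, while Grin2b, the subunit of immature neurons, was not called (0.38).

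**Figure D4:**
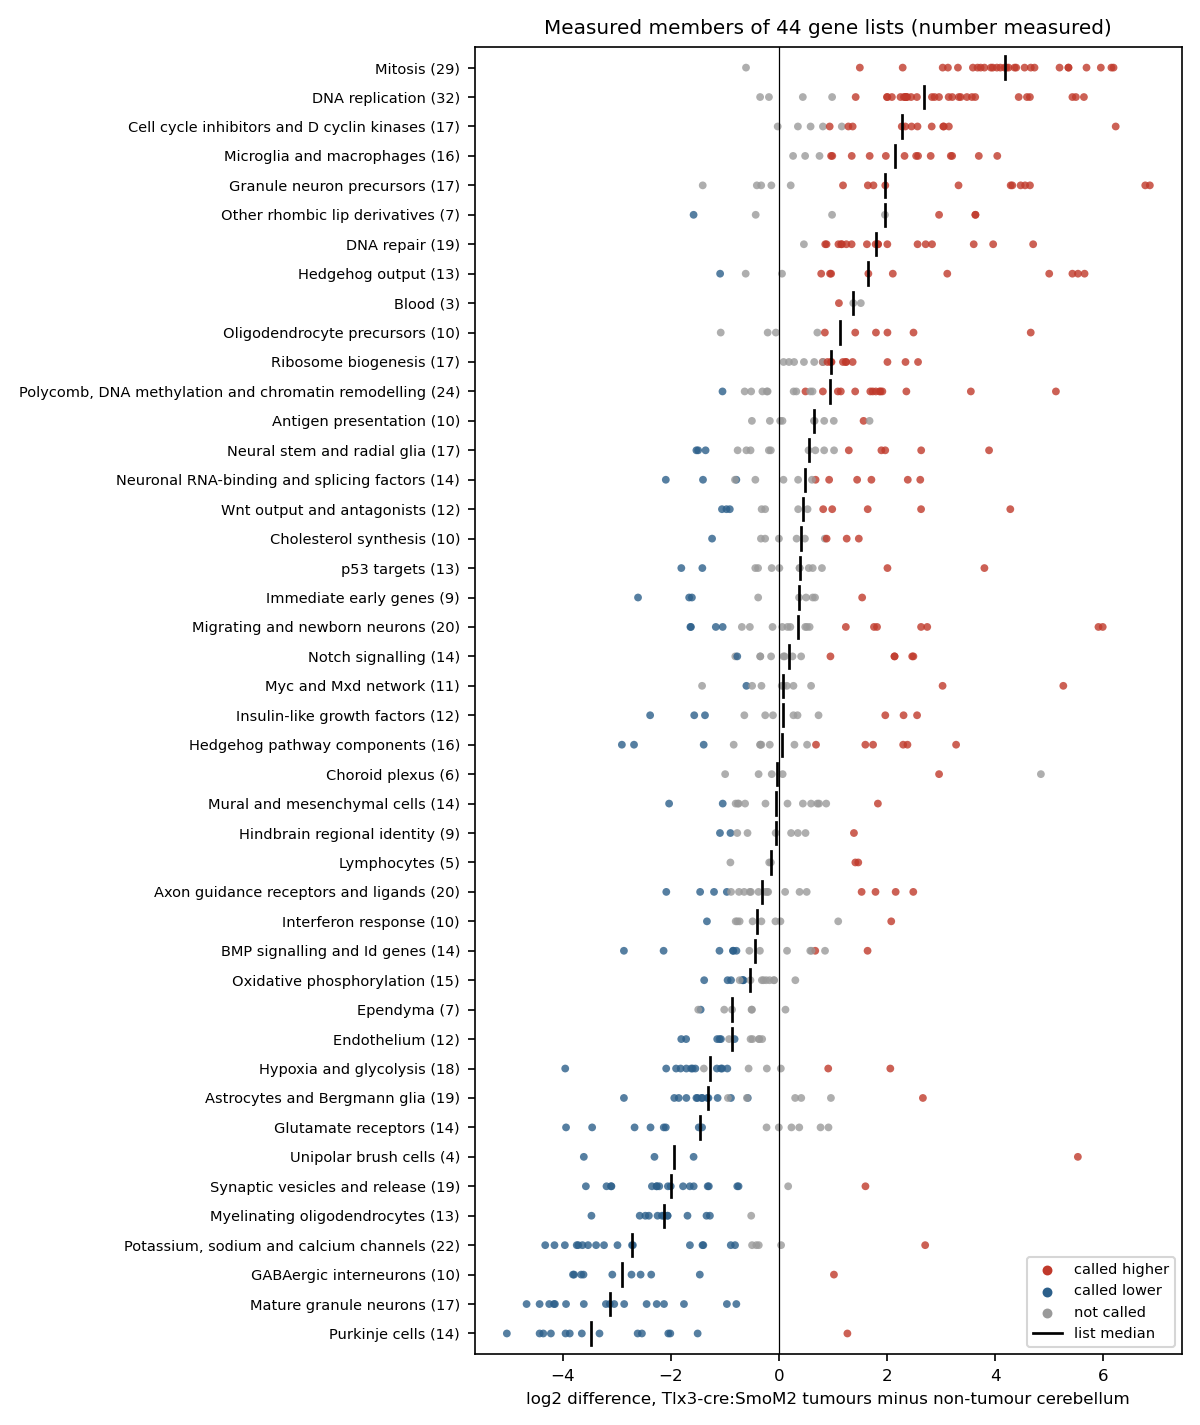
Log2 difference, Tlx3-cre:SmoM2 tumours minus non-tumour cerebellum, of every measured member of 44 gene lists, ordered by list median (black bar); red members were called higher, blue lower and grey not called. Mitosis lies at the top with a median of 4.18 and Purkinje cells at the bottom with -3.49.

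Glial and other cell types were set beside these results. Myelin genes fell: 12 of 13 were lower, with a median of -2.13, and their summed signal was 2121, 5810 and 3017 in the tumours and 9026 to 15526 in the controls. Among genes above the table median on at least 9 arrays, 10 myelin genes were measured and 10 were lower. Mbp, a main protein of myelin, was at 9.85, 11.92 and 10.46 in the tumours and between 12.31 and 13.15 in the controls (-2.06, limma adjusted p = 0.0121). Genes of oligodendrocyte precursors moved the other way, with 6 of 10 higher and none lower; without tumour 3, 5 were higher and 1, Tnr, was lower. Pdgfra, the growth factor receptor of these precursors, was at 10.46, 10.87 and 11.35 in the tumours and between 5.70 and 6.73 in the controls (4.66, limma adjusted p = 3.18e-12). Olig2, their transcription factor, was at 7.49, 7.58 and 7.44 in the tumours and between 4.46 and 6.14 in the controls (2.49, limma adjusted p = 3.94e-05). Sox10 (-0.06) and Cspg4 (0.71), which also mark these cells, were not called.

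The astrocyte and Bergmann glia list had 13 of 19 members lower and 1 higher. The higher member was Gfap, an intermediate filament of reactive astrocytes, at 10.76, 10.79 and 10.44 in the tumours and between 6.44 and 9.84 in the controls (2.66, limma adjusted p = 0.0039). S100b and Gja1, also of astrocytes, fell by 1.94 and 1.51, and Gdf10, of Bergmann glia, fell by 2.87; Aqp4 was not called (0.30). The count of lower members was 8 without tumour 1 and 4 with no scaling. The neural stem and radial glia list had 5 of 17 members higher (29.4%) and 3 lower (17.6%), against 19.7% and 20.6% of all tested genes. Hes5, a Notch target, rose by at least 2.63 and Sox1 by 1.97. Ptprz1, a receptor phosphatase, fell by 1.36 and Slc1a3, a glial glutamate transporter, fell by 1.53; the other lower member was Tnc, of the extracellular matrix. Sox2 was not called (-0.19).

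Genes of microglia and macrophages rose, 13 of 16 with none lower, and their summed signal was 8038 to 8870 in the tumours and 1707 to 2706 in the controls. Lyz2, lysozyme of macrophages, was at 10.81, 10.70 and 10.81 in the tumours and between 6.62 and 7.04 in the controls (4.04, limma adjusted p = 4.47e-07). The complement gene C1qc rose by 3.70 and Tyrobp, an adaptor of microglial receptors, by 3.20. P2ry12, a marker of resting microglia, and Csf1r, the receptor on which these cells depend, were not called (0.75 and 0.48). Lymphocyte markers were sparse: Ptprc, common to all white blood cells, rose by 1.47 and Cd52 by 1.41, while Cd8a, Cd79a and Ms4a1 were not called. Endothelial genes were lower in 6 of 12 and higher in none, with 3 lower after quantile normalization and 2 with no scaling. The part of these cell types in the other differences was not tested.

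Markers of choroid plexus, the tissue that makes spinal fluid, differed between single arrays. Ttr, its most abundant transcript, was at 12.56, 10.91 and 12.37 in the tumours and between 3.90 and 13.23 in the controls, with a median of 6.50, and was not called (4.85, limma adjusted p = 0.16). Control 5 held the highest value of all, and without it the difference was 6.07. The summed signal of the 6 markers was 6945, 2826 and 5942 in the tumours, 10555 in control 5 and 318 to 557 in the other controls. Folr1, Clic6, Aqp1 and Kcnj13, the markers other than Ttr and Otx2, were not called. Otx2, expressed in choroid plexus and in the granule lineage, was at 9.45, 9.23 and 8.66 in the tumours and between 5.21 and 6.75 in the controls (2.96, limma adjusted p = 2.57e-06). The part of choroid plexus tissue in the Otx2 difference was not tested.

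Of 18 genes of hypoxia and glycolysis 12 fell (7 with no scaling) and 2 rose. Among hexokinases Hk2, that of dividing precursors, rose by 2.06 and Hk1 fell by 1.62; among lactate dehydrogenase subunits Ldha rose by 0.91 and Ldhb fell by 1.60; the aldolases Aldoa and Aldoc both fell, Aldoa by 1.82 and Aldoc by 1.71. The count of higher genes was 1 without tumour 1, tumour 2 or control 6. Eno2, the neuronal enolase, fell by 3.96. Among 14 neuronal RNA-binding and splicing factors 6 rose (42.9%) and 3 fell (21.4%), against 19.7% and 20.6% of all tested genes. Ptbp1, of progenitors, rose by 2.61, while Rbfox1 and Rbfox3, of mature neurons, fell by 2.09 and 0.79. Of 15 oxidative phosphorylation genes 6 fell, but 0 fell with no scaling, 1 with median scaling and 3 without tumour 3. Of 12 genes of insulin-like growth factor signalling 3 rose (25%) and 3 fell (25%), against 19.7% and 20.6% of all tested genes. Igfbp4, a binding protein, was at 8.71, 9.45 and 9.41 in the tumours and between 5.61 and 7.71 in the controls (2.56), while Igf1r (-0.11) and Igf2 (-0.64) were not called.

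For the lists of other signalling pathways, shares are given beside the 19.7% higher and 20.6% lower of all tested genes. The lists were chosen with earlier results of these data known, so these shares describe the members and test no pathway. In the Notch list 5 of 14 rose (35.7%) and 1 fell: Jag1, a ligand, and Hey1, a target, rose by 2.14 each, while the receptors Notch1 (0.11) and Notch2 (0.41) were not called. Of 12 Wnt genes 5 rose (41.7%) and 3 fell (25%); the antagonist Sfrp2 rose by 4.28 and the target Nkd1 by 2.63, whereas Axin2, a general target, was not called (0.35) and Lef1 fell by 0.97. The 3 that fell were not called with no scaling, with quantile normalization or without tumour 1 or 2. Of 14 genes of BMP signalling 6 fell (42.9%) and 2 rose, among them Id4, which fell by 2.13, and Id3, which rose by 1.64. The count of lower BMP genes was 3 without tumour 2, 3 with median scaling and 2 with no scaling, and the count of higher ones was 1 without any 1 of the tumours. Of 20 axon guidance genes 4 rose (20%) and 4 fell (20%), shares like those of all tested genes, and 2 fell without control 3, 2 with quantile normalization or median scaling and 1 with no scaling. Plxnb2, a semaphorin receptor of granule precursors, rose by 2.48 and Sema5a fell by 2.08.

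The next shares stand beside the 19.7% higher and 20.6% lower of all tested genes. Of 17 ribosome biogenesis genes 11 rose (64.7%) and none fell, with Fbl, which methylates ribosomal RNA, higher by 2.34. Cholesterol synthesis had 3 of 10 genes higher (30%) and 1 lower (10%). Sqle rose by 1.48 and Sc5d fell by 1.24. Of 9 immediate early genes 3 fell (33.3%), Egr1 by 2.61 and Fos by 1.61 among them, and 1 rose (11.1%). Among 7 markers of further cells born in the rhombic lip 3 rose (42.9%), Pou4f1 and Lhx2 by at least 3.64 and 3.63, and 1 fell (14.3%). Of 9 genes of hindbrain regional identity 1 rose (11.1%) and 2 fell (22.2%), the lower share like that of all tested genes. En1 rose by at least 1.39 and En2 fell by 0.90. The En1 call was lost without tumour 2 (1.03) or tumour 3 (1.36), and without control 1 (1.22), control 3 (1.34) or control 4 (1.28). The En2 call was lost without tumour 1 (-0.83) or tumour 3 (-0.91), with no scaling (-0.52) and with median scaling (-0.64). The count of lower genes was 0 without tumour 1 and 1 without tumour 2, tumour 3 or control 2. Without both Olig2-tva-cre:SmoM2 controls no gene of this list was called.

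Markers of remaining cell types were mostly not called. Their shares stand beside the 19.7% higher and 20.6% lower of all tested genes. Of 10 antigen presentation genes 1 rose (10%), Psmb8 by at least 1.56. None rose without tumour 1 or among genes above the table median on at least 9 arrays, and 3 rose without tumour 3. Of 10 interferon response genes 1 rose (10%), Ifitm3 by 2.08, and 1 fell (10%), Ifit3 by 1.33. The Ifit3 call was lost with no scaling (-0.95) and with quantile normalization (-1.04). Of 14 mural and mesenchymal genes 1 rose (7.1%), Col4a1 by 1.83, and 2 fell (14.3%), Pdgfrb by 2.03 and Col1a2 by 1.04, with 11 not called. Without tumour 1 the counts were 2 higher and 1 lower, and Col1a2 was not lower by its probe set with the largest SD (0.08). Of 7 ependymal genes 1 fell (14.3%), Dynlrb2 by 1.45, a call lost without tumour 1 and with no scaling. Without control 3 or control 4, 2 fell. Of 3 blood markers 1 rose (33.3%), Hba-a2 by 1.11. That call was lost without tumour 1 (1.08) or tumour 3 (1.05) and with log2(signal + 16) in place of the floor (0.76). The summed signal of the blood markers was 148 to 449 in the tumours and 54 to 213 in the controls.

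Outside the lists, the genes with the highest differences included Cd24a, a surface protein of immature neurons, at 12.42, 12.08 and 12.35 in the tumours and between 4.36 and 8.42 in the controls (6.42). Igfbpl1, an insulin-like growth factor binding protein relative, was at 9.24, 9.40 and 9.32 in the tumours and at the floor in all 6 controls, so it was at least 61.9-fold higher. BC034090 was between 8.95 and 9.53 in the tumours and also at the floor in all controls, at least 62.1-fold higher. Tox3, a chromatin factor, rose by at least 6.07. Among the lowest of all genes were Tesc, a calcium-binding protein, at -4.93, and Gng13 and Rgs8, G protein signalling genes of Purkinje cells, at -4.43 and -4.36. The called lower genes were longer, with a median span of 30.7 kb, against 22.2 kb for called higher genes and 21.5 kb for genes not called; 23.3% of them, against 11.7% and 11.6%, spanned over 100 kb.

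The tumours also differed among themselves. Tumour 2 had the highest summed signal of the mature granule neuron genes, 8985, against 6350 and 5302 in tumours 1 and 3, and likewise of Purkinje genes (5607, against 3414 and 3015) and of myelin genes (5810, against 2121 and 3017). It was the lowest of the tumours on the choroid plexus markers. The genes with the largest spread over the tumours included H2-Ab1, an antigen-presenting molecule, at 7.26, 6.80 and 3.37 in the tumours and between 3.37 and 5.24 in the controls (1.68, not called), and Olig3, a factor of the rhombic lip, at 5.47, 4.62 and 7.78 in the tumours and between 3.37 and 5.06 in the controls (1.96, not called).

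The Tlx3 tumours were then compared with the other SmoM2 tumours, which differ in the Cre driver. Against the mean of the Math1, Olig2 and hGFAP tumours 2 genes were called (0.0148%), with 1532 at an unadjusted p under 0.05. Both were lower: Ackr2, a scavenging chemokine receptor, averaged 3.81 ± 0.58 in the Tlx3 tumours, against 5.55 ± 0.20 in Math1, 5.38 ± 0.35 in Olig2 and 5.69 ± 0.47 in hGFAP tumours (SD, n = 3, 3, 7 and 6), a difference of -1.73 (limma adjusted p = 0.0418). Gm33409, a predicted gene, averaged 5.70 ± 0.56, against 7.21 ± 0.45, 7.06 ± 0.34 and 7.14 ± 0.42 in the same groups (-1.44, limma adjusted p = 0.0418). For Ackr2 tumour 1 lay at the floor, so its difference is a bound. Both calls were lost under every scaling alternative and without tumour 1 or tumour 2. Atoh1 differed by -0.09 (95% interval -0.99 to 0.81) and Gli1 by 0.03 (-0.79 to 0.85), so differences approaching 1 on the log2 scale lie within these intervals. The intervals are not adjusted for the 13527 genes tested, and a call needed a larger difference than they show.

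Set against single groups, limma called no gene between Tlx3 and Math1 tumours (576 at an unadjusted p under 0.05), 27 against Olig2 tumours (0.2%) and 102 against hGFAP tumours (0.754%). Of the calls against Olig2 tumours 20 were higher (0.148%) and 7 lower (0.0517%) in the Tlx3 tumours, and of those against hGFAP tumours 10 were higher (0.0739%) and 92 lower (0.68%). These counts rest on all 3 tumours: without 1 of them they were 0, 0 to 14 and 1 to 14. Before scaling, trimmed mean signals were 169 to 206 in the Tlx3, 43 to 205 in the Olig2 and 74 to 153 in the hGFAP arrays. The log2 3' to 5' ratios were 0.04 to 0.44, -0.15 to 1.78 and 0.32 to 1.88, and the median gene SD 0.262, 0.507 and 0.452. The part of brightness and RNA quality in these calls was not tested beyond the fits given under the processing alternatives. Against Olig2 tumours Ccnd1 averaged 10.24 ± 0.35 in Tlx3 tumours and 11.39 ± 0.33 in Olig2 tumours (-1.15, limma adjusted p = 0.0218). Kcnk1, a potassium channel, averaged 10.47 ± 0.19 in Tlx3 tumours and 8.52 ± 0.89 in Olig2 tumours (1.96), and Celf5, a neuronal RNA-binding protein, 9.23 ± 0.07 and 8.02 ± 0.40 (1.21). Against hGFAP tumours Gli3 averaged 5.86 ± 0.39 in Tlx3 tumours and 7.57 ± 0.50 in hGFAP tumours (-1.72, limma adjusted p = 0.0381), and the mesenchymal genes Pdgfrb and Col1a2 differed by -1.48 and -1.49. Ptbp2, a neuronal splicing factor, and BC034090 were higher in the Tlx3 tumours by 1.03 and 3.47. Against non-tumour cerebellum the direction of Ptbp2 and Col1a2 turned with the choice of probe set.

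**Figure D5:**
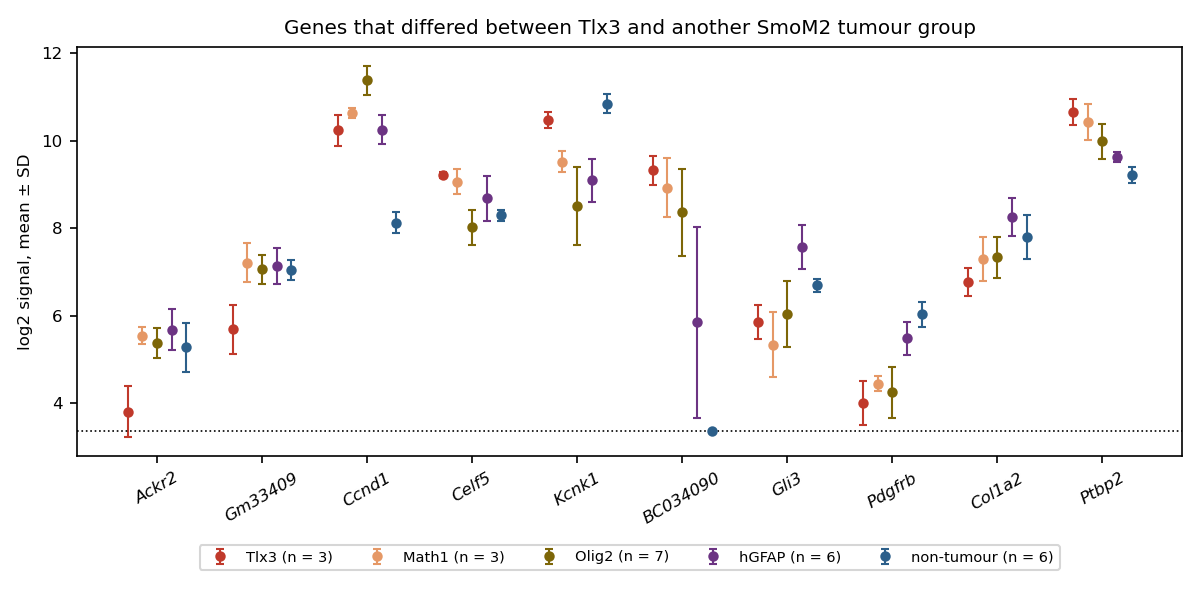
Mean log2 signal with SD in Tlx3 (3), Math1 (3), Olig2 (7) and hGFAP (6) SmoM2 tumours and non-tumour cerebellum (6) for 10 genes that were called between Tlx3 tumours and at least 1 other SmoM2 group, all of them members of the lists or of the named genes; the dotted line is the floor. Ackr2 and Gm33409 are lowest in the Tlx3 tumours.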

How the data were processed

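RNA of each sample was hybridised to an Affymetrix mouse array. The authors deposited MAS5 signal intensities on a linear scale, per the submitters' processing notes and the values; settings of MAS5 are not given in the sources used here. Each of the 27 arrays was scaled to a common 2% trimmed mean (123.61), signals were raised to the table's 20th percentile (10.32) and log2 was taken. Probe sets above the table median (45.56) on at least 3 arrays were kept, with the brightest probe set for each gene, named through GEO's platform annotation (34958 of 45101 probe sets had 1 gene, 932 several and 9211 were not listed). limma 3.58.1 in R 4.3.3 fitted 6 group means over all 27 arrays, with a trended and robust eBayes and Benjamini-Hochberg adjustment over 13527 genes. The number of arrays and the spread pooled over all 6 groups limit the precision: the median 95% half-width of a difference was 0.65. Median gene SDs were 0.262 in the Tlx3 tumours and 0.305 in the controls, against 0.507 in Olig2 and 0.452 in hGFAP tumours. A fit of only the 3 Tlx3 and 6 control arrays called 6905 of 12065 genes. The fit was also run on simulated data with independent normal noise, the same spread in all groups and no floor. That setting differs from these data, so it gives no error rate for them.

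Members and the 44 gene lists were chosen with earlier results of these data known. Genes were named by rule: drivers and pathway genes, the highest and lowest called genes without overlap, the genes called against the other SmoM2 tumours, the extremes and uncalled members of each list, and the genes with the largest spread over the tumours. Haemoglobin, immunoglobulin and sex-linked marker genes were left out of the rankings. Same-numbered Tlx3 and control arrays correlated at 0.034, 0.122 and -0.01 in their deviations, and the main fit did not treat them as pairs. Whether same-numbered samples shared an animal or a batch was not tested. Alternatives covered scaling, floor, filter, probe set, moderation, array weights, RNA quality, brightness, the arrays in the model and leaving out arrays. Promoter windows came from RefSeq.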

Additional observations from a re-analysis of the deposited data

Results flagged for a closer look

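Dixon's test flags about 1 in 20 groups by chance, a rate that does not carry over to values at the floor or to genes chosen by their values. For Insm1, 4 controls lay at the floor. Of the 40 genes checked, 6 had a control array that stood apart from the other 5 by this test. Control 6, from the Ptc1+/- line, was apart on 4 of them: Insm1 at 6.73, against 3.37 to 4.09 in the other controls; Top2a at 6.40, against 3.54 to 4.46; Slc1a6 at 8.06, against 8.996 to 9.47; and Tlx3 at 3.63, against 5.96 to 7.09. Without it the differences, tumours minus controls, were 7.40 for Insm1, 6.59 for Top2a, -5.22 for Slc1a6 and 0.52 for Tlx3. Control 5, from the Mxi1-cre:SmoM2 line, was at 13.23 for Ttr, against 3.90 to 7.13, and control 2 at 7.04 for Lyz2, against 6.62 to 6.73.

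Other genes differed between the Tlx3 tumours and another SmoM2 tumour group by limma's test of that difference. Against the mean of the Math1, Olig2 and hGFAP tumours these were Ackr2 (-1.73, a bound) and Gm33409 (-1.44). Against the Olig2 tumours they were Ccnd1 (-1.15), Celf5 (1.21) and Kcnk1 (1.96). Against the hGFAP tumours they were BC034090 (3.47), Col1a2 (-1.49), Gli3 (-1.72), Pdgfrb (-1.48), Ptbp2 (1.03) and Tpx2 (-1.12).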

How the results depend on the processing

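The 5451 calls ranged from 3359 with no scaling (1025 of them lower) to 7868 with array weights, and from 4263 to 5272 when single arrays were left out, with 2125 to 2567 higher and 2098 to 2705 lower. The fit with the replicate block called 5281 genes. The 2 calls against the mean of the other SmoM2 tumours became 0 with no scaling, quantile normalization, median scaling, log2(signal + 16), the mean of probe sets, the probe set with the largest SD, the 3' to 5' covariate, the replicate block and only the 19 SmoM2 tumour arrays, 1 with the floor at the 30th percentile and the brightness covariate, and 1096 with array weights; leaving out single tumours gave 0 to 3. Counts against single groups ranged from 0 to 101 for Math1, 0 to 6060 for Olig2 and 0 to 1757 for hGFAP tumours. The cause of these changes was not tested. Of 229 called named genes, 160 kept their call in each of the 26 alternatives that tested them. Turns of direction were counted only for named genes called in the main or the alternative fit. Among these, directions turned only with the probe set. With the probe set of largest SD the differences were -0.94 for Cacna1c, 0.082 for Col1a2, 1.29 for Dnmt3a, -0.41 for Fdft1, 2.13 for Fen1, 1.02 for Igf2bp3, 1.24 for Mxd1, 1.88 for Nes, -1.72 for Pdk1, -1.07 for Ptbp2, -0.27 for Tcf4 and 4.73 for Tpx2. With the mean of probe sets they were 0.89 for Fen1, 0.32 for Mxd1 and 1.72 for Tpx2.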
